A study of Homo sapiens with 6 samples.

Results

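The 9 genes described here, DNMT1, DNMT3A, DNMT3B, UHRF1, UHRF2, TET1, TET2, TET3 and MBD2, encode the enzymes that place and remove DNA methylation and the proteins that read it. They were taken by gene symbol from a table of 60546 genes, and each symbol matched 1 gene. RNA-seq had been performed on cells labelled HCT-116, an established human colon carcinoma cell line, carrying the viral vector PMSCV either with GOLPH3 (3 libraries) or empty (3 libraries). Stable lines had been selected with puromycin and sampled at different generations, and the labels give every sample the genotype wild type and colon as tissue. Each title ends in P and a number whose meaning the labels leave undefined: P8, P12 and P13 for GOLPH3 replicates 1, 2 and 3, and P12, P11 and P13 for Vector replicates 1, 2 and 3. Each group is 1 line, so the spread between its libraries is a spread between cultures of that line, and the construct and the line cannot be told apart.

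The values are read counts that were divided by a size factor per library, called normalized reads here. The libraries held between 15708846 and 21900764 reads. GOLPH3, a Golgi phosphoprotein, had 1428 ± 183 normalized reads (SD, n = 3) in the GOLPH3 group and 1777 ± 267 (SD, n = 3) in the Vector group, and the groups overlapped. The groups are therefore named by their labels throughout. Of the 9 colon epithelial markers, EPCAM, KRT8, KRT18, KRT19, CDH1 and CDX2 were present in every library, while VIL1, LGALS4 and CDH17 did not exceed 9.7 normalized reads in any library.

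DNA methylation in mammals sits mainly on cytosines of CpG dinucleotides. After replication, UHRF1 binds the hemimethylated site and brings in DNMT1, which copies the mark to the daughter strand, whereas DNMT3A and DNMT3B methylate sites anew. The TET dioxygenases oxidise methylcytosine, which opens the way to its removal, and MBD2 binds methylated CpG and recruits the NuRD repressor complex. DNA methylation itself was not measured in these samples, and every value below is an RNA level.

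The promoters of UHRF1, DNMT1 and TET1 are shown because TET1 had the largest log2 difference between the groups, UHRF1 the lowest log2 difference of P8 and P11 from the other libraries, and DNMT1 is the partner of UHRF1. The sequences are from RefSeq on GRCh38.p14 and run 5′ to 3′ on the gene's strand, from 94 bases before the annotated start through the first 6 transcribed bases, at the start farthest upstream where RefSeq lists several. Capitals mark an E2F-type match, searched as TTTGGCGC, TTTGCCGC, TTTCGCGC or TTTCCCGC on both strands.
UHRF1, chr19:4909407-4909506, plus strand: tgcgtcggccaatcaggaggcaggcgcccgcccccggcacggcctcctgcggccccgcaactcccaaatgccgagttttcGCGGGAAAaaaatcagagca
DNMT1, chr19:10194948-10195047, minus strand: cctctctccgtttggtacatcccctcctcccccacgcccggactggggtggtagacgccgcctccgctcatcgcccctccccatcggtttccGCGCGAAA
TET1, chr10:68560243-68560342, plus strand: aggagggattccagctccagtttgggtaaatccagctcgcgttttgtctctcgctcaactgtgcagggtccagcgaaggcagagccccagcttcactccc
The match began 14 bases before the UHRF1 start and 2 bases before the DNMT1 start, and the longer 300-base TET1 window held none. Such a match was present in 1164 of 35116 RefSeq promoters (3.31%) and in 3 of the 20 promoters of the members, which belong to 2 of the 9 genes. At the start shown, UHRF1 and DNMT1 had 36 and 30 CpG dinucleotides in 300 bases and TET1 had 10, where the median promoter had 14. UHRF1 and TET1 each have 3 listed starts, and their other starts are not described by these counts. The TET1 start shown, at 68560337, lies upstream of the GENCODE span of the gene, which begins at 68560656. A match describes the letters and not a binding site.

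Levels between genes were compared per kilobase of annotated exon. This length joins all annotated exons of a gene, 5145 bases for UHRF1 and 9796 for DNMT1. It can exceed the length of the transcript that is made, so the order depends on it. On this measure UHRF1 and DNMT1 stood highest, with means of 762 and 691 normalized reads per kb over the 6 libraries. DNMT3B followed at 279 and MBD2 at 201. TET3 and UHRF2 came next at 101 and 98.9, then DNMT3A at 44.6, TET2 at 33.4 and TET1 at 22.2. DNMT1 was above DNMT3B, and UHRF2 above DNMT3A, for every pairing of libraries. The other neighbours in this order had ranges that overlapped, UHRF1 and DNMT1 among them, with UHRF1 the higher of these in 4 of 6 libraries. The order also moved with the group, since the mean of TET3 was above that of UHRF2 in the GOLPH3 libraries (118 and 95.3 per kb) and below it in the Vector libraries (83.9 and 102). TET1 had a mean of 10.4 per kb in the GOLPH3 libraries and 33.9 in the Vector libraries, and in Vector replicate 3 it stood above TET2 (35.1 and 30.8).

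**Figure D1:**
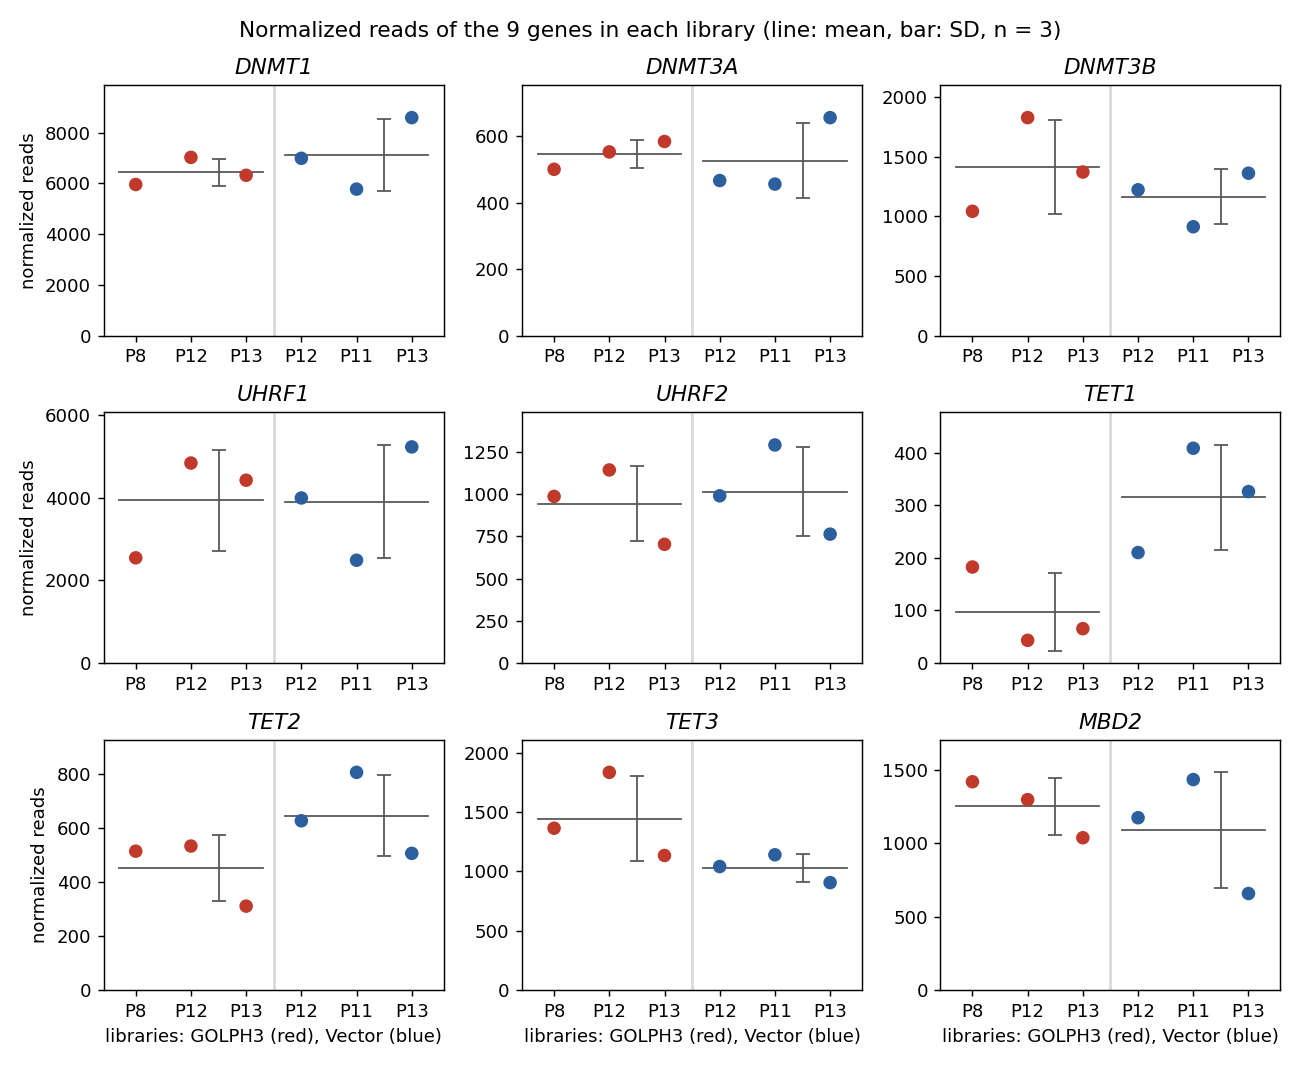
Normalized reads (y axis, linear from 0) of each of the 9 genes in the 6 libraries (x axis, labelled by the number after P), with GOLPH3 libraries in red, Vector libraries in blue, a line at the group mean and a bar for the SD (n = 3). TET1 is the only panel in which all red points, 42.9 to 182.5, lie below all blue points, 210.0 to 408.6.

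The first question was whether any member differed between the libraries labelled GOLPH3 and those labelled Vector. None of the 9 passed limma's test with Benjamini-Hochberg adjustment over 26536 genes, against 5.07% of all genes tested, of which 253 were higher and 1093 lower in the GOLPH3 libraries. At an unadjusted p under 0.05, 1 of 9 members was lower and 0 were higher, against 17.6% of all genes in either direction. TET1, the member concerned, also passed the adjusted threshold in 5 of 16 alternatives, among them DESeq2 and both fits with P numbers as blocks, whose values stand with that gene below. The groups did not overlap for 1 of the 9, TET1, where 22.0% of all genes tested had groups that did not overlap. The median log2 difference of the members was 0.02, and that of all genes tested was also 0.02.

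Among the writers, DNMT1, the maintenance methyltransferase (ENSG00000130816, GRCh38 chromosome 19 from 10133345 to 10231286, minus strand, by GENCODE 29), had 5952.3, 7023.2 and 6316.3 normalized reads in GOLPH3 replicates 1 to 3 and 6985.8, 5771.2 and 8589.6 in Vector replicates 1 to 3. The groups overlapped, and the log2 difference was -0.13 (95% interval -0.73 to 0.47). DNMT3A, a de novo methyltransferase (ENSG00000119772, chromosome 2 from 25227855 to 25342590, minus strand), had 500.2, 552.5 and 583.9 in the GOLPH3 libraries and 466.3, 455.7 and 655.7 in the Vector libraries, a log2 difference of 0.07 (-0.57 to 0.71). The lowest and highest DNMT3A libraries were both Vector libraries. DNMT3B, the other de novo enzyme (ENSG00000088305, chromosome 20 from 32762385 to 32809356, plus strand), had 1042.3, 1828.2 and 1371.7 against 1222.8, 912.6 and 1361.9. Its log2 difference was 0.26 (-0.41 to 0.93), with GOLPH3 replicate 2 standing highest and Vector replicate 2 lowest. Normalized reads of DNMT3B were 2.0 to 3.31 times those of DNMT3A in every library, a ratio not corrected for length.

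UHRF1, the reader of hemimethylated DNA (ENSG00000276043, chromosome 19 from 4903080 to 4962154, plus strand), had 2546.2, 4842.9 and 4426.8 normalized reads in the GOLPH3 libraries and 3996.7, 2487.9 and 5234.1 in the Vector libraries. The group means were nearly equal, at 3939 ± 1224 and 3906 ± 1375 (SD, n = 3), and the log2 difference was 0.02 (95% interval -0.75 to 0.79). The spread lay inside each group, where GOLPH3 replicate 1 (P8) and Vector replicate 2 (P11) were far below the other libraries. Its paralogue UHRF2 (ENSG00000147854, chromosome 9 from 6413151 to 6507054, plus strand), which shares the domains of UHRF1 but does not replace it in maintenance, had 987.6, 1144.6 and 703.5 against 991.2, 1292.7 and 763.8. The log2 difference of UHRF2 was -0.10 (-0.78 to 0.58), and its lowest library in each group was P13. The ratio of UHRF1 to UHRF2 normalized reads, not corrected for length, was lowest in the P8 and P11 libraries (2.58 and 1.92) and highest in the P13 libraries (6.29 and 6.85).

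TET1 (ENSG00000138336, chromosome 10 from 68560656 to 68694482, plus strand) was the member that separated the groups. It had 182.5, 42.9 and 65.1 normalized reads in GOLPH3 replicates 1 to 3, from 170, 52 and 61 reads, and 210.0, 408.6 and 326.1 in Vector replicates 1 to 3, from 204, 373 and 380 reads. The means were 96.8 ± 75.0 and 315 ± 99.8 (SD, n = 3), and the gap between the groups was small, since GOLPH3 replicate 1 stood near Vector replicate 1. The log2 difference was -1.91 (standard error 0.51, 95% interval -3.02 to -0.80), a 3.76-fold lower level, with an adjusted p = 0.0539 from limma that did not pass the threshold. The exact two-sided permutation test gave p = 0.1, the smallest that 3 libraries against 3 allow. DESeq2 on the recovered reads put TET1 past the threshold (log2 -1.71, adjusted p = 0.0139), as it did 8.68% of the genes it tested, and edgeR did not (log2 -1.70, adjusted p = 0.0965). Within P12 the log2 difference between the GOLPH3 and the Vector library was -2.27, within P13 it was -2.31, and between P8 and P11 it was -1.16. With the P number as a block, a limma fit that rests on the P12 and P13 pairs alone, the difference was -2.29 with an adjusted p = 1.82e-10. That fit called 22.9% of all genes tested. It leaves hardly any spread within a gene to estimate its variance. Its p therefore leans on variance that limma shares across genes, and is no measure of the spread between cultures. With P8 and P11 put in 1 block, so that all 6 libraries contributed, it was -1.91 with a limma adjusted p = 0.000422.

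The groups overlapped for the other TET genes. TET2 (ENSG00000168769, chromosome 4 from 105145875 to 105279816, plus strand) had 515.3, 534.3 and 311.7 normalized reads in the GOLPH3 libraries and 627.9, 807.4 and 507.2 in the Vector libraries, with a log2 difference of -0.53 (95% interval -1.24 to 0.19). GOLPH3 replicate 3 was lowest, and GOLPH3 replicates 1 and 2 overlapped with Vector replicate 3. TET3 (ENSG00000187605, chromosome 2 from 73986404 to 74108176, plus strand) had 1364.4, 1834.7 and 1134.7 against 1041.6, 1140.4 and 906.2, with a log2 difference of 0.47 (-0.16 to 1.09). The groups overlapped only through GOLPH3 replicate 3 and Vector replicate 2, which differed by less than 10 normalized reads. TET3 passed the threshold in the fit with the P number as a block (log2 0.57, adjusted p = 0.0228 from limma) and in no other.

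Per kilobase of joined exons, TET3 supplied the largest share of the TET transcripts in each of the 6 libraries. The shares depend on these lengths, 9288 bases for TET1, 16474 for TET2 and 12271 for TET3. TET1 made up 12.1%, 2.47% and 5.92% of the TET sum in GOLPH3 replicates 1 to 3 and 15.5%, 23.7% and 25.1% in Vector replicates 1 to 3. The share of TET3 was 68.6%, 80.1% and 78.1% in the GOLPH3 libraries and 58.3%, 50% and 52.8% in the Vector libraries. The sum itself overlapped between the groups, at 162, 187 and 118 normalized reads per kb against 146, 186 and 140. The shares were not tested, since a lower TET1 raises the share of the others by construction.

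**Figure D2:**
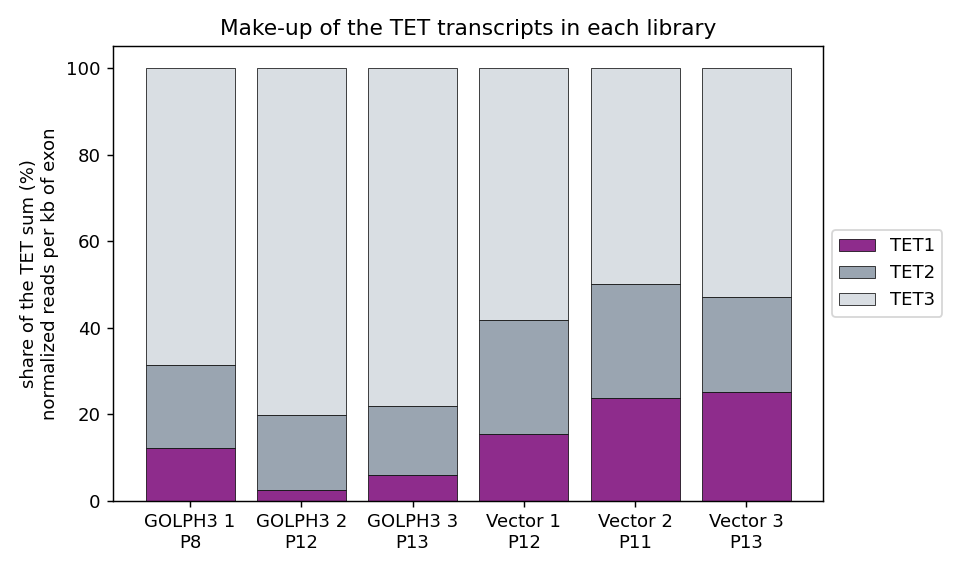
Share of TET1, TET2 and TET3 in the summed normalized reads per kb of exon of the 3 genes (y axis, percent) in each library (x axis). TET1 takes 2.47% to 12.1% in the GOLPH3 libraries and 15.5% to 25.1% in the Vector libraries.

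MBD2 (ENSG00000134046, chromosome 18 from 54151601 to 54224788, minus strand), the methyl-CpG binding subunit of NuRD, had 1417.0, 1295.5 and 1036.5 normalized reads in the GOLPH3 libraries and 1172.4, 1431.8 and 657.4 in the Vector libraries. The groups overlapped, with a log2 difference of 0.26 (95% interval -0.46 to 0.99). Vector replicate 3 was the lowest of the 6 libraries and Vector replicate 2 the highest.

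**Figure D3:**
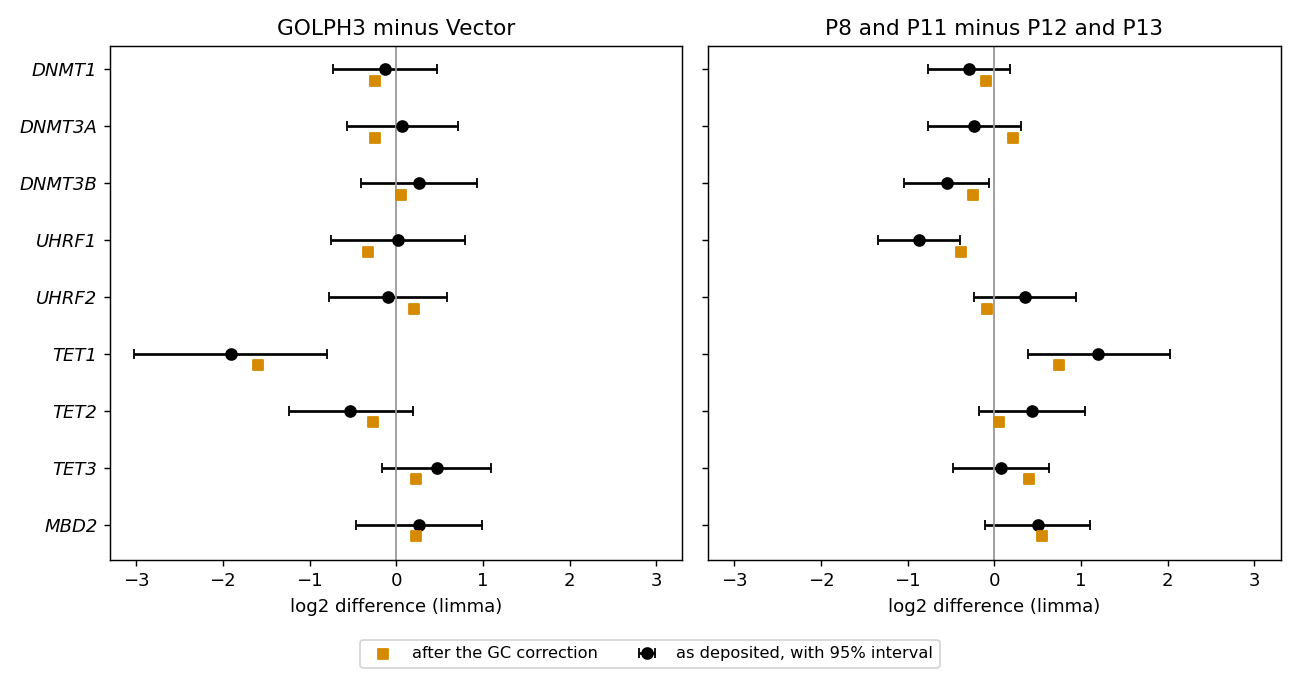
Log2 differences from limma (x axis) for the 9 genes (y axis), GOLPH3 minus Vector on the left and P8 and P11 minus P12 and P13 on the right, with circles and 95% intervals for the deposited values and squares after a correction for GC content. TET1 has the largest difference on the left (-1.91) and UHRF1 the lowest on the right (-0.87).

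Many cell-type markers differed between the groups. Both marker lists were chosen with earlier results of these data known, so their counts describe the lists and are not a test. All 10 mesenchymal and neural-type markers tested were lower in the GOLPH3 libraries by limma (adjusted p under 0.05), against 5.07% of all genes in either direction. Their summed level was 57 to 167 normalized reads in the GOLPH3 libraries and 9100 to 23474 in the Vector libraries. The median log2 difference of this list was -8.93, or -7.75 with genes at or under 3 reads set to their bound. Of these, 7 had 3 or fewer reads in every GOLPH3 library, among them UCHL1, a neuronal deubiquitinase, which was at 0 in all 3 and was at least 346-fold lower. VIM, the mesenchymal filament vimentin, had 5.4, 41.2 and 11.7 normalized reads against 3406.9, 1653.1 and 3194.2. In the other direction, KRT19 and KRT18, keratins of simple epithelium, were higher in the GOLPH3 libraries (log2 1.92 and 1.26, limma adjusted p = 0.0044 and 0.0363), and the other 7 colon markers were not called. The groups did not overlap for 6 of the 9 colon markers, all higher in the GOLPH3 libraries, against 22.0% of all genes tested. LGALS4, among these, did not exceed 5.4 normalized reads in any library. CDX2 stood the other way, at a log2 difference of -0.52, and its groups overlapped. After a correction for GC content 4 of the 9 were called, EPCAM and CDH1 in addition (limma adjusted p = 0.0182 and 0.0179). That fit called 1640 of 26536 genes. Whether both groups derive from the same HCT-116 cells was not tested. The part of this difference between the lines in the TET1 result was not tested either, and in bulk RNA fewer cells of a kind and less RNA per cell cannot be told apart.

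Genes known as targets of silencing by promoter methylation were set beside the members. The list held 11 genes, known from work on HCT-116 or as germ-line genes kept silent in somatic cells, and 7 of them could be tested. SFRP1, a secreted Wnt antagonist, was at 0 in all GOLPH3 libraries and had 367.5, 281.5 and 683.1 normalized reads in the Vector libraries, at least 138-fold lower in the former. GATA4 was likewise at 0 against 217.2, 83.3 and 473.7 (at least 80.1-fold lower), and GATA5, a related transcription factor, had 0, 0 and 1.1 against 64.8, 23.0 and 185.4 (at least 28.3-fold lower). TIMP3, an inhibitor of matrix metalloproteinases, had 96.6, 99.0 and 165.5 against 429.2, 283.7 and 617.9, a log2 difference of -1.85 (standard error 0.39, limma adjusted p = 0.0146). These 4 of 7 genes were called, all lower, against 5.07% of all genes tested in either direction. The list was chosen with earlier results of these data known, so the count is not a test. SFRP5, CDKN2A and the meiotic gene SYCP3 were not called. Although listed as silenced, CDKN2A had 356.0 to 1143.1 normalized reads over the 6 libraries. SFRP1, GATA4 and GATA5, also listed as silenced, had reads in every Vector library. SFRP2 and the germ-line genes DAZL and MAEL had 3 or fewer reads in every library, and DDX4 did not exceed 4.1 normalized reads. SFRP1, GATA4, GATA5 and TIMP3 were lower on the same side as the mesenchymal markers, and whether their promoters were methylated was not measured.

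**Figure D4:**
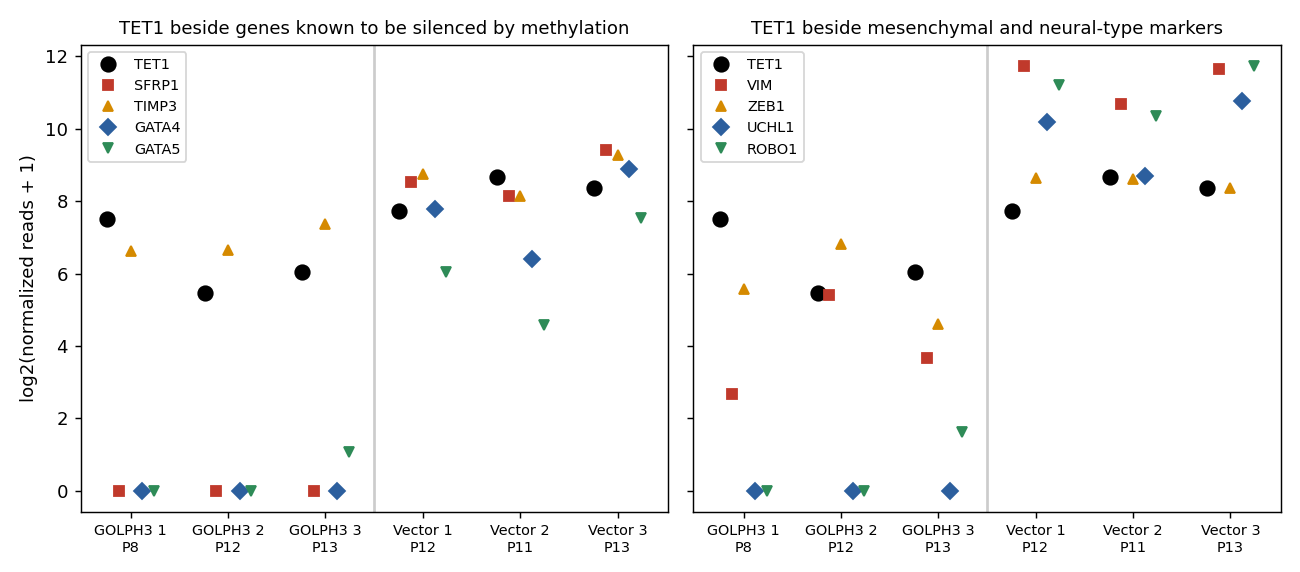
Levels as log2(normalized reads + 1) (y axis) in the 6 libraries (x axis) for TET1 (black circles in both panels) beside 4 genes from the list of genes known for silencing by methylation (left) and 4 mesenchymal or neural-type markers (right). The 4 genes on the left are those that were called, out of 7 tested. SFRP1, GATA4 and UCHL1 are at 0 in every GOLPH3 library, whereas TET1 has 42.9 or more normalized reads in each.

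The partners of the members were described from 5 lists of 40 genes, of which 38 could be tested and 1 was called, against 5.07% of all genes. The median log2 difference of the 38 was -0.11. Among 7 other methyl-CpG readers, ZBTB33, the zinc-finger protein Kaiso, had 683.8, 548.4 and 411.0 normalized reads in the GOLPH3 libraries and 1376.2, 1453.7 and 1314.7 in the Vector libraries. It was the gene called, with a log2 difference of -1.36 (standard error 0.29, limma adjusted p = 0.0162), and its groups did not overlap. MBD1, MBD3, MBD4, ZBTB4 and ZBTB38 were not called.

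Of the methyltransferase partners, CDCA7 and HELLS had the smallest p. Together they form a nucleosome remodeller that full DNA methylation depends on. CDCA7 had 1150.7, 1030.8 and 1030.1 normalized reads in the GOLPH3 libraries against 2082.2, 1816.4 and 2076.8, a separation without overlap and a log2 difference of -0.89 that did not pass (limma adjusted p = 0.0758). HELLS differed by -0.88 (adjusted p = 0.205 from limma) and its groups overlapped. DNMT3L, the cofactor of the de novo enzymes in germ cells, and ZFP57, a guardian of imprints, had no reads in any library.

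In the remaining lists no gene was called. Among 10 demethylation partners the smallest p belonged to CXXC4 and TDG, the glycosylase that excises oxidised methylcytosine, with log2 differences of -1.58 and -0.70 (limma adjusted p = 0.195 and 0.249). Among 5 genes of the methyl donor cycle, they belonged to MTR (methionine synthase) and MAT2B, at -0.80 and -0.36 (adjusted p = 0.169 and 0.570 from limma). Of 11 NuRD subunits, RBBP7 and RBBP4, the histone-binding subunits, stood at -0.73 and -0.75 (limma adjusted p = 0.150 and 0.179), with a list median of -0.17. Of 16 S-phase genes, TOP2A and RRM1 stood at -1.22 and -0.96 (limma adjusted p = 0.0600 and 0.0709), and the list median was -0.33. With a correction for the GC content of the transcripts, 3 of the 16 passed, all lower, namely TOP2A, RRM1 and E2F1 (limma adjusted p = 0.0246, 0.0280 and 0.0249). That fit called 1640 of 26536 genes, 1366 of them lower.

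The second comparison asked whether the P12 library of each group differed from the others, with group as a term. No gene in the table passed limma's adjusted threshold (0.0% of 26536), and 0 of 9 members did either. At an unadjusted p under 0.05 limma gave 1920 genes, while edgeR called 0 and DESeq2 called 196 after adjustment. TET1 and DNMT3B had the smallest p among the members. TET1 was lowest in P12 within each group, with a log2 difference of -1.06 (95% interval -2.07 to -0.06, limma adjusted p = 0.663). DNMT3B differed by 0.37 (-0.31 to 1.06), with P12 the highest library in the GOLPH3 group but not in the Vector group.

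A further comparison, chosen after seeing the data, set the libraries with a P number under 12 (P8 and P11, 1 of each group) against P12 and P13. limma called 2.88% of all genes and 0 of 9 members. At an unadjusted p under 0.05, UHRF1 and DNMT3B were lower and TET1 higher in P8 and P11, 3 of 9 members against 21.8% of all genes. UHRF1 had 2546.2 and 2487.9 normalized reads in P8 and P11 and at least 3996.7 in each of the other libraries, a log2 difference of -0.87 (95% interval -1.34 to -0.40, limma adjusted p = 0.0569). DNMT1, DNMT3A and DNMT3B were also lowest in P8 and P11 within each group, at -0.29, -0.23 and -0.55. TET1 was highest in P8 and P11 within each group, at 1.20 (limma adjusted p = 0.0999).

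GC content moved with this last comparison. Across 25890 genes, the log2 difference had a Spearman rho of -0.50 with the GC content of the annotated transcripts, where it was 0.34 for GOLPH3 against Vector and 0.02 for P12. Genes are not independent replicates, and these values describe the libraries. UHRF1 is the member richest in GC (58.1%) and TET1 the poorest (41.0%). After a loess trend on GC content had been removed from each library, UHRF1 differed by -0.39 and TET1 by 0.74, and limma called 1 gene in the table. For GOLPH3 against Vector, TET1 stood at -1.60 after this correction (limma adjusted p = 0.0515), whereas UHRF1 moved from 0.02 to -0.33. Mitochondrial genes took 4.41% to 9.97% of the reads in the 6 libraries.

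**Figure D5:**
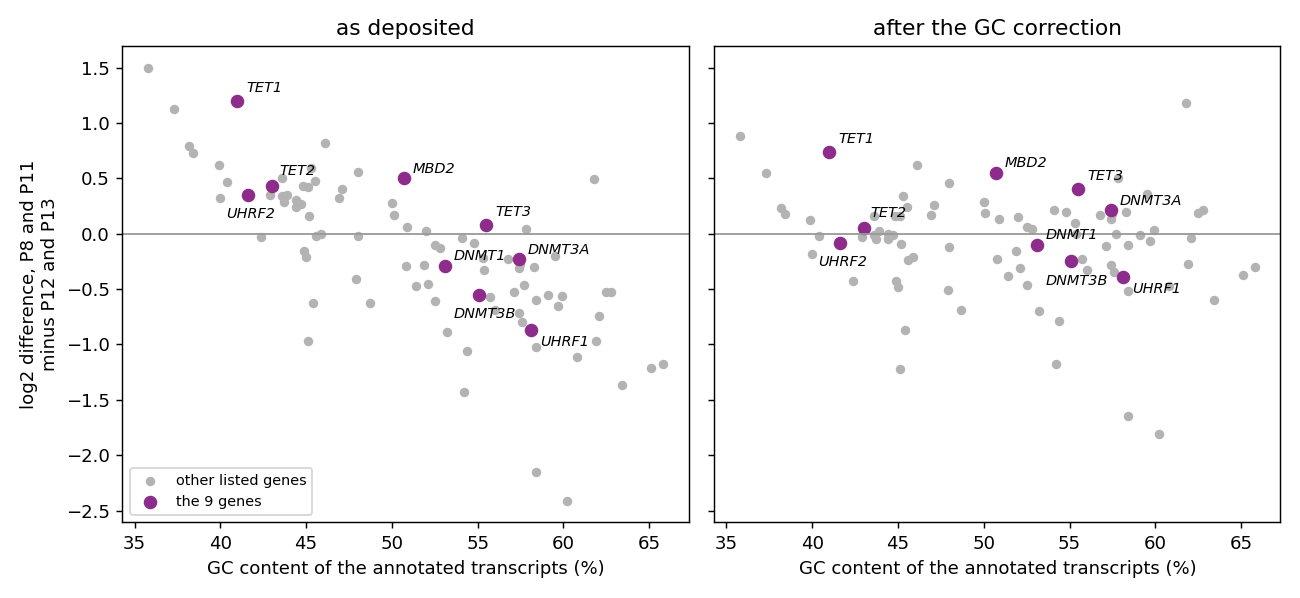
Log2 difference of P8 and P11 minus P12 and P13 (y axis) against the GC content of the annotated transcripts in percent (x axis), for the 9 genes (purple) and the other listed genes (grey), before (left) and after (right) the GC correction. UHRF1 moves from -0.87 to -0.39 and TET1 from 1.20 to 0.74.

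The genes whose levels were most like those of a member were sought among 12661 genes with a mean of at least 50 normalized reads, by Pearson's r of the log2 levels over the 6 libraries, as a description. XPO7, PPP1R3D and NXPE3 were nearest to TET1 (r = 0.9988, 0.9964 and 0.9947), and 190 genes exceeded 0.95. XPO7 had 2036.3, 1369.7 and 1523.3 normalized reads in the GOLPH3 libraries and 2068.9, 2521.9 and 2307.7 in the Vector libraries, a much narrower range than that of TET1. The clone-named genes AC244102.3 and AC010198.2 and the receptor gene EGFR were nearest to TET3 (r = 0.9932, 0.9846 and 0.9730). NAGK, SLC35C2 and TROAP were nearest to DNMT3B (r = 0.9951, 0.9905 and 0.9883).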

How the data were processed

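Total RNA from the 6 samples was sequenced by the authors, whose processing notes name fastp 0.20.0, HISAT2 2.1.0, Cufflinks, featureCounts 1.6.1, DESeq2 and the build GRCh38. The annotation and the strand setting are not given in the sources used here, so reads of overlapping antisense genes cannot be told apart. The deposited signal is a normalized value per gene. The table had 60590 entries for 60546 identifiers, and 44 second entries were added to the first. In every library 100.0% of nonzero values were whole multiples of a step between 0.8246 and 1.0955. The margin was 0.01 reads, or for large counts a wider one in proportion to the count. The step gave the recovered reads, 15708846 to 21900764 per library. A count of 0 allows up to 3 reads, and such limits cover counting error only.

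limma 3.58.1 (R 4.3.3) was run on log2(value + 1) for genes reaching 1 in 3 or more libraries, with Benjamini-Hochberg adjustment over all of them and a call at an adjusted p under 0.05. Folds of low genes are understated on this scale. Exact permutation tests used SciPy 1.17.1. Gene spans, exon lengths and GC content came from GENCODE 29. The alternatives were edgeR 4.0.16 and DESeq2 1.42.0 on recovered reads, other filters, a pseudocount of 0.1, quantile normalization, blocks, and each library left out. The GC correction and the comparison of P8 and P11 with the rest were added after seeing the data. The fits were tested on simulated data.

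The members, gene lists and comparisons were chosen with earlier results of these data known. Named genes are the 9 members, the genes of each list with an adjusted p under 0.05 in the 2 planned comparisons or otherwise the 2 with the smallest p, and the 3 genes most correlated with the 2 members of smallest p in each comparison. Other genes named were chosen after their values were seen.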

Additional observations from a re-analysis of the deposited data

Results flagged for a closer look

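For 4 members the GOLPH3 library was above the Vector library within P12 and below it within P13, and these differences between the pairs were not tested, since each pair is 1 library against 1. The log2 differences within P12 and within P13 were 0.01 and -0.44 for DNMT1, 0.24 and -0.17 for DNMT3A, 0.28 and -0.24 for UHRF1, and 0.21 and -0.12 for UHRF2. The gaps between the pairs were thus 0.45, 0.41, 0.52 and 0.33 on the log2 scale.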

How the results depend on the processing

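TET1 was lower in the GOLPH3 libraries in all 16 alternatives (log2 -2.50 to -1.47, adjusted p from 1.82e-10 to 0.177). The lowest p came from the limma fit with the P number as a block, whose limit is given above. TET1 passed the threshold in 5, namely DESeq2, both P-number blocks, no filter, and without GOLPH3 replicate 1 (limma adjusted p = 0.00405). The count of members called, 0 in the report, was 1 with DESeq2, 1 with no filter, 2 with the P number as a block, 1 when P8 and P11 shared a block, and 0 to 1 with a library left out. Over all genes these blocks called 6082 and 5549 and a filter of 1 in every library called 405, while DESeq2 called 603 higher and 1388 lower. Leaving out a library gave 459 (without Vector replicate 1) to 1528 calls, with 481 without Vector replicate 3, 881 without GOLPH3 replicate 3 and 895 without Vector replicate 2. Of the 38 tested genes of the 5 pathway lists, 2 were called with DESeq2 and 0 to 3 with a library left out. Either P-number block called 13 of the 38, 3 higher and 10 lower, in fits that called 6082 and 5549 of 26536 genes. ZBTB33 was the 1 gene of the report, and no list gene was called without GOLPH3 replicate 3, Vector replicate 1 or Vector replicate 3.

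The replicate number did not pair the samples, as same-numbered libraries had correlations of deviations of -0.232, -0.151 and 0.259, whereas the P12 libraries had 0.256, the P13 libraries 0.259, and P8 with P11 0.331. With the replicate block, 0 members and 1081 genes were called, and TET1 stood at -1.91 with a limma adjusted p = 0.114.

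Small differences changed sign. In GOLPH3 against Vector, the GC correction gave -0.25 for DNMT3A, -0.33 for UHRF1 and 0.20 for UHRF2, quantile normalization gave -0.09 for UHRF1, and the P-number block gave 0.04 for UHRF2. With a library left out, DNMT1 ranged from -0.27 to 0.01, DNMT3A from -0.02 to 0.24, UHRF1 from -0.27 to 0.31, UHRF2 from -0.29 to 0.10 and MBD2 from -0.06 to 0.50. None of these was called in any alternative, and the cause was not tested.

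For P12 against the rest, DESeq2 called 196 genes, the GC correction 403, and leaving out a library 0 to 23 (the latter without GOLPH3 replicate 3). For P8 and P11 against P12 and P13, DESeq2 called 2 members (UHRF1 and TET1) and 2302 genes, quantile normalization 10 genes and the GC correction 1. Leaving out a library gave 0 to 1 members and 0 to 2033 genes, with 0 without GOLPH3 replicate 1 or Vector replicate 2, where 1 library is left on that side and is assumed to vary like the others. The other counts were 209 without Vector replicate 1, 378 without GOLPH3 replicate 3, 459 without Vector replicate 3 and 2033 without GOLPH3 replicate 2, which also put UHRF1 past the threshold (adjusted p = 0.0386). In this comparison the GC correction gave 0.21 for DNMT3A and -0.08 for UHRF2, and TET3 ranged from -0.08 to 0.25 with a library left out. For GOLPH3 against Vector, at 3 libraries a group, intervals of members other than TET1 still held log2 differences of up to 1.24 in size.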

Other observations

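Among the genes outside the 9 members, GADD45A and GADD45B, stress-induced genes that have been linked to demethylation, were the listed partners with the most negative log2 differences of P8 and P11 from the other libraries. GADD45B had 359.6 and 281.5 normalized reads there and 914.8 to 2825.9 in the other 4 libraries, a log2 difference of -2.41 (adjusted p = 0.0150 from limma). GADD45A differed by -2.15 (limma adjusted p = 0.0290). After the GC correction neither was called (limma adjusted p = 0.179 for GADD45A and 0.146 for GADD45B). CDT1, a replication licensing factor, was the 1 S-phase gene called in that comparison, at -1.18 (limma adjusted p = 0.0429), and stood at -0.30 after the correction.

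The proliferation marker MKI67 had its highest levels, 10855.9 and 11631.0 normalized reads, in the same P8 and P11 libraries in which UHRF1 was lowest, with a log2 difference of 0.82 (limma adjusted p = 0.0762) that was 0.62 after the GC correction (adjusted p = 0.230 from limma). The 16 S-phase genes had a median of 0.00 in this comparison. TOP2A and CCNE2 stood at 0.73 and 0.62, and E2F1 and CCNE1 at -0.53 and -0.47. After the GC correction TOP2A, CCNE2, E2F1 and CCNE1 stood at 0.18, 0.12, 0.19 and -0.38. These genes were chosen after their values were seen.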
